A study of Mus musculus with 483 samples.

Results

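Cluster 2 was a group of mouse endothelial cells from the aorta-gonad-mesonephros region, the embryonic tissue around the dorsal aorta. Its members were the cells whose label gave ICGS cluster 2, a name for an unsupervised clustering by guide genes. They numbered 145 of the 483 cells of the series, 73 labelled Ctrl and 72 labelled aDll4-treated. Cluster 1 (97 Ctrl and 86 treated cells) and cluster 3 (31 and 36) served for comparison. The title of the series names the Notch ligand Dll4 and blood stem cell production. The labels do not spell out aDll4, and give no genotype, strain, embryonic age, dose, duration, embryo or culture for either group. All groups came through 1 sort, CD31+ (Pecam1), Kit+ and CD45- (Ptprc), and all were processed by Smart-seq2, which reads whole transcripts of single cells without molecular identifiers and without strand. Each cell was its own library. The labels call the cells hematopoietic stem cells, whereas the transcripts of cluster 2 were those of endothelium, as given below.

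The endothelium of this region forms the wall of the dorsal aorta and of neighbouring veins and small vessels. A few of its cells, the hemogenic endothelium, switch on Runx1 and bud off as blood stem and progenitor cells. Dll4 on one endothelial cell activates Notch receptors on its neighbour, and Notch drives arterial genes such as Hey1, Gja4 and Efnb2. Aplnr, the receptor for apelin, is known from venous and capillary endothelium, and Sox17 is a SoxF transcription factor of arterial and hemogenic endothelium.

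Libraries with numbers below 20000 are called block 1 and those above 22000 block 2. The labels do not say what the number stands for. Cluster 2 had 60 Ctrl and 53 treated cells in block 1, and 13 Ctrl and 19 treated cells in block 2. Reads assigned to genes per cell of the cluster had a median of 868344 in Ctrl and 816464.5 in treated cells, and the lowest cell had 136928. The median share of mitochondrial reads was 8.84% and 8.46%. After thinning every cell to 100000 reads, Ctrl cells showed a median of 5766 detected genes in cluster 2, 6078 in cluster 1 and 4309 in cluster 3. The sex of the cells was not balanced between treatments. In block 1, 24 Ctrl cells carried Xist reads and 33 carried Y-linked reads, against 0 and 45 of the treated cells. In block 2, 4 Ctrl cells carried Xist reads and 7 Y-linked reads, against 18 and 0 of the treated cells. Treatment values are therefore also given for cells of the shared sex for the values they move most, which in block 2 leaves 4 Ctrl cells.

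Since no label names an embryo or culture, each treatment was 1 sample, no test between groups was possible and no p-value is given. The level of a gene in a group is its summed count over all cells of that group divided by the summed reads and multiplied by 1000000 (counts per 1000000 reads, CPM), and its 95% interval is exact Poisson. A share of cells in which a gene was read has an exact Clopper-Pearson 95% interval. These intervals hold counting error alone, since reads amplified from 1 molecule are not independent. A ratio is the log2 of summed CPM with 1 CPM added to both groups, which understates low genes, and 2-fold means a log2 ratio of 1. The clusters were drawn on these same cells, so differences between clusters describe them and are no independent finding. Likewise, treated and Ctrl cells of cluster 2 were compared after both had been sorted into it by their transcripts.

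Aplnr, Sox17 and Depp1 were taken as the markers of cluster 2. The labels of the cells name no gene of the cluster. Aplnr (chr2:85136225-85139923, plus strand, build mm10) had a read in 71 of 73 Ctrl cells of cluster 2, and its level per cell ran from 0 through a median of 708 to 5548 CPM. Its summed level was 960.0 CPM (952.5 to 967.6), against 876 in cluster 1 and 462 in cluster 3. The order of clusters 2 and 1 changed with the block: 933 against 813 CPM in block 1, and 1061 against 1067 in block 2. Aplnr therefore set cluster 2 apart from cluster 3 (log2 ratio 1.05) but hardly from cluster 1 (0.13).

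Sox17 (chr1:4490931-4497354, minus strand) had a read in 72 of 73 Ctrl cells of cluster 2, with a lowest cell at 0, a median of 243 and a highest of 2522 CPM. It was summed to 371 CPM, against 252 in cluster 1 and 101 in cluster 3. In both blocks the order was cluster 2, cluster 1, cluster 3: 337, 208 and 70.7 CPM in block 1, and 496, 383 and 122 in block 2. The ranges of single cells overlapped in all clusters. Depp1 (chr6:116650609-116652794, plus strand), a FOXO-responsive gene known from autophagy, gave the widest gap against cluster 1 among the 3 markers. It had a median of 241 CPM per cell in cluster 2, against 5.90 in cluster 1 and 2.20 in cluster 3, with cells at 0 in each and highest cells at 5145, 4649 and 3994 CPM. Its summed level was 780, 323 and 156 CPM in clusters 2, 1 and 3 of block 1, and 1068, 486 and 579 in block 2.

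Stab2 (chr10:86841198-87008025, minus strand), a scavenger receptor of sinusoidal and venous endothelium that takes up hyaluronan, was not among these markers. It was read in 32 of 73 Ctrl cells of cluster 2 (43.8%, 32.2 to 55.9), in 18 of 97 of cluster 1 (18.6%, 11.4 to 27.7) and in 8 of 31 of cluster 3 (25.8%, 11.9 to 44.6). Its summed level was 69.3, 12.2 and 14.1 CPM, and the gap was seen in both blocks (66.3, 15.1 and 22.8 CPM in block 1, and 80.5, 3.46 and 8.04 in block 2). Most cells of cluster 2 had no Stab2 read, whereas nearly all had reads of Aplnr and Sox17.

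**Figure D1:**
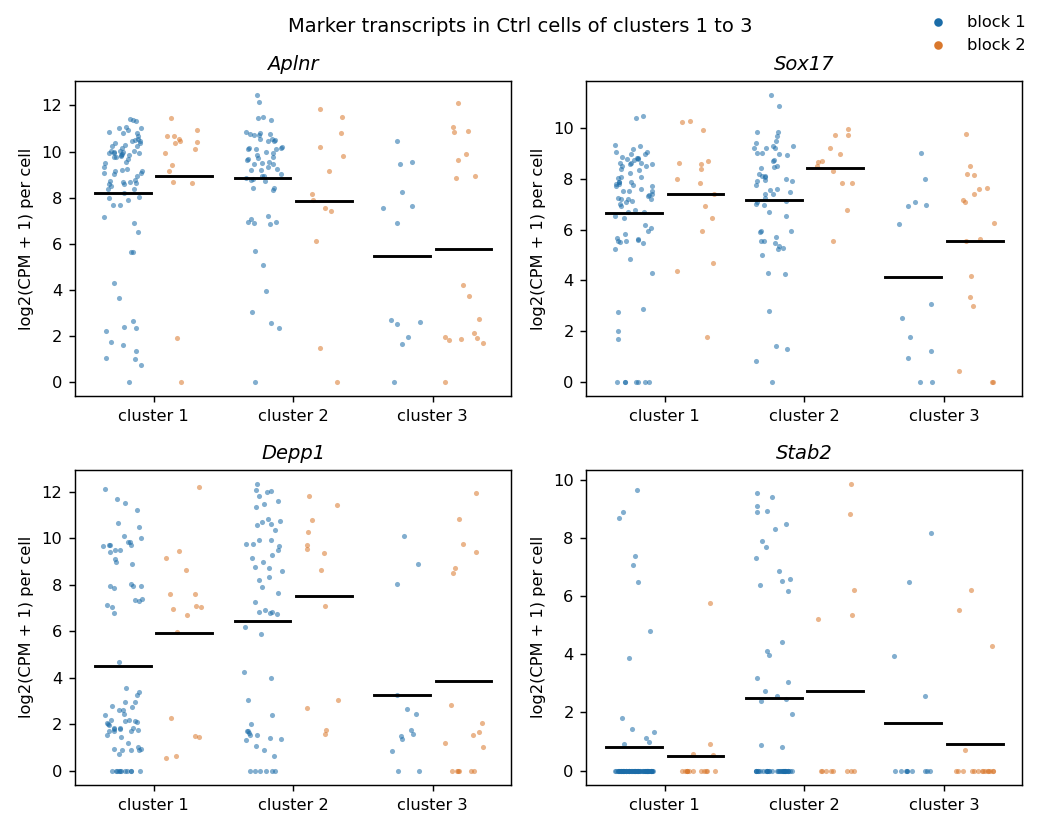
Aplnr, Sox17, Depp1 and Stab2 in single Ctrl cells of clusters 1, 2 and 3 (x axis), as log2(CPM + 1) per cell (y axis), with each point a cell, blue for block 1 and orange for block 2, and a black bar at the mean. Aplnr lies at a like height in clusters 1 and 2, Sox17 and Depp1 are highest in cluster 2, and Stab2 is at 0 in most cells of each cluster but was read in 43.8% of cluster 2.

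All 7 endothelial markers listed (Pecam1, Cdh5, Kdr, Tek, Tie1, Emcn and Erg) were read in cluster 2, and every one of its 145 cells had a read of at least 1. So did every cell of clusters 4 to 7, and the level was what differed. It was a summed 4592 CPM in Ctrl and 4196 in treated cells of cluster 2. In clusters 4, 5, 6 and 7 it was 64.4, 170, 193 and 253 CPM. Pecam1, the CD31 of the sort, was at 904 CPM and Kit at 224 CPM in Ctrl cells. Both were lower than in cluster 1, with Kit at 381 CPM there (log2 ratio -0.76). Ptprc, the CD45 sorted against, had reads in 1 of 73 Ctrl and 1 of 72 treated cells, and was at 0 in block 2. Of the 4 hemogenic markers (Runx1, Gfi1, Gfi1b and Myb), at least 1 was detected in 24 Ctrl cells (32.9%) and 25 treated cells (34.7%). Runx1 itself was read in 12 Ctrl cells (16.4%, 8.8 to 27), at 2.68 CPM in block 1 and 54.3 in block 2, where 3 of 13 cells had a read. The 5 hematopoietic markers summed to 96.3 CPM in Ctrl and 78.4 in treated cells, the 5 mesenchymal ones to 27.7 and 29.6, and the 4 mesonephric ones to 5.39 and 0.643. The 4 erythroid markers summed to 17.6 CPM in Ctrl and 317 in treated cells, with 1 treated cell of block 1 at 14967 CPM. The part of any of these in the differences below was not tested.

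Against clusters 1 and 3 together, few genes kept 1 direction. Of 10318 measured genes with neither a predicted name nor a sex link, 141 (1.37%) were higher in cluster 2 than in both other clusters, in both blocks and by all 3 measures of the naming rule, and 48 (0.465%) were lower. Depp1 and Stab2 were among the 141. Mcm2, a subunit of the replicative helicase, was at 322 CPM in cluster 2, 182 in cluster 1 and 225 in cluster 3, and had reads in 97.3% of the cells of cluster 2. Pfkfb3, which makes the sugar phosphate that speeds glycolysis, was at 56.7, 31.9 and 16.6 CPM. E2f6, a repressor among the E2F factors of the cell cycle, was at 39, 10.6 and 16.8 CPM, and was read in 42.5% of the cells of cluster 2. Dap, a negative regulator of autophagy, was at 123, 78.6 and 101 CPM.

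Of the 48 genes lower in cluster 2 than in both others, some leading ones follow. Ncapd3, a condensin II subunit that compacts chromosomes, was at 29.9 CPM in cluster 2, 57.2 in cluster 1 and 119 in cluster 3. Cenpc1, a centromere protein, was at 15.2, 33.8 and 38.6 CPM. G2e3, a ubiquitin ligase named for its G2 and M phase expression, was at 45.8, 102 and 95.1 CPM, and Cks2, a subunit of cyclin-dependent kinases, at 25, 35 and 33.5. Hes6, an inhibitor of Hes1, was at 21.1, 38.4 and 62.2 CPM.

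With both blocks together, cluster 1 differed from cluster 2 by 2-fold in fewer genes than cluster 3 did. In block 1, with 81 cells of cluster 1, 354 genes were higher in cluster 2 and 661 lower. Against the 13 cells of cluster 3 there, the counts were 2937 and 1469. In block 2, with 16 and 18 cells, they were closer, at 1529 and 2541 against cluster 1 and 2280 and 2132 against cluster 3. The part of the number of cells was not tested. A gene counted as measured when 10% or more of the cells in clusters 1 to 3 had a read, which 12782 genes did. Of these, 2.35% were at least 2-fold higher in cluster 2 than in cluster 1 and 5.01% at least 2-fold lower. Heat shock genes and genes of G2 and M phase stood out from that background. Of 9 heat shock genes, 9 were higher in cluster 2 than in cluster 1 and 7 by at least 2-fold, with a median log2 ratio of 1.36 against -0.01 over all measured genes. Of 18 genes of G2 and M phase, 0 were higher and 9 were at least 2-fold lower, with a median of -0.99. Of 18 genes of S phase, 17 were higher, 1 by 2-fold, with a median of 0.41, where 49.3% of all genes were higher by any amount. All 3 medians held their sign in each block. They were 1.43, -0.84 and 0.32 in block 1, and 0.84, -1.36 and 0.55 in block 2.

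The endothelial programme itself differed less from cluster 1. The 18 arterial genes measured had a median log2 ratio of -0.07, with 8 higher, and the 18 pan-endothelial genes one of -0.08, with 6 higher. Among 18 Notch receptors, ligands and modifiers, 3 were higher and 0 were 2-fold lower, with a median of -0.28. Dll4 was among the lower members. It was read in 65 of 73 Ctrl cells of cluster 2, with a median of 203 and a highest cell of 2162 CPM, and in 96 of 97 of cluster 1, with a median of 461 and a highest of 4501. Its summed level was 318 CPM (314 to 323) against 599.5 (594.6 to 604.5), and 65 in cluster 3, so that cluster 2 lay between the others. Igfbp3, an IGF binding protein of arterial endothelium, followed the same order at 1131, 1936 and 242 CPM. Flt1, the VEGF receptor that acts as a decoy, was at 605 CPM in cluster 2 and 1168 in cluster 1. Adm, the peptide adrenomedullin, and Ramp3, a subunit of its receptor, were at 99.8 and 21.7 CPM in cluster 2, and at 189 and 88.6 in cluster 1. Cdkn1a, the p53-induced cell cycle inhibitor p21, was at 68.3 against 153 CPM. Fosl2, an AP-1 factor, was at 26.4 against 100.5 CPM, and Itga3, an integrin subunit that binds laminin, at 49.9 against 127.

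On the higher side against cluster 1 alone stood genes of ribosome assembly. Ltv1, a factor of the small ribosomal subunit, was at 136 against 54.5 CPM and had reads in 80.8% of cells against 56.7%. Of 13 measured genes of the MYC family and ribosome biogenesis, 10 were higher, 2 by 2-fold, with a median of 0.49, and the medians of the blocks were 0.48 and 0.45. Myc itself was at 79.2 against 30.9 CPM, a gap carried by block 1 (96.5 against 32.8), since block 2 had 14.8 against 25. Of 11 stem cell regulators, 8 were higher, with a median of 0.54, and that median was -0.02 when only genes read in at least 50% of cells were kept. Mecom, a transcription factor of blood stem cells and arterial endothelium, was at 83.9 against 57.2 CPM, and Meis1, a homeobox partner of Hox proteins, at 23.1 against 6.41. Flrt2, a membrane ligand of Unc5 receptors, was at 83.7 against 31.8 CPM, and Wdr77, a subunit of the arginine methylation complex with Prmt5, at 46 against 17.1. Nr2f2, the transcription factor of venous identity, was at 40.9 against 23.7 CPM, and was read in 60.3% and 54.6% of cells. Venous genes went both ways. Among the 4 with the largest differences in mean log2(CPM + 1), Stab2 and Nr2f2 were higher (1.80 and 0.96). Vwf and Flt4 were lower (-1.12 and -0.46). The venous markers Nr2f2, Ephb4, Nrp2 and Flt4 summed to 602 against 565 CPM. The sums were 637 against 564 in block 1 and 471 against 565 in block 2.

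**Figure D2:**
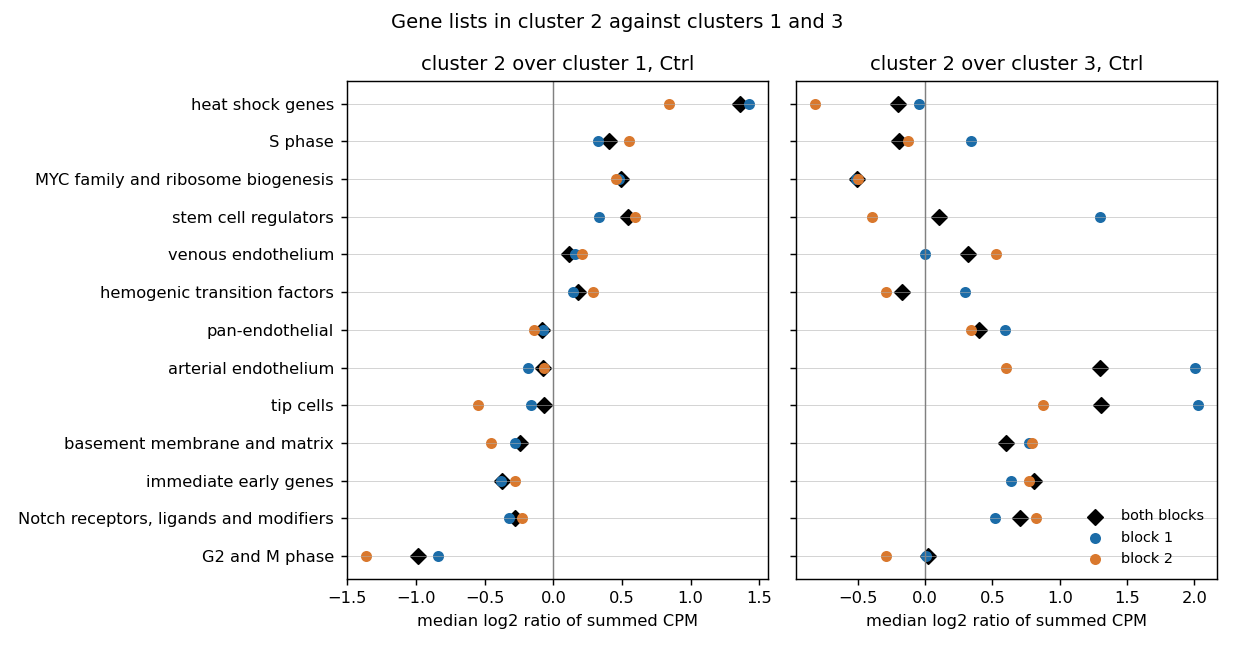
Median log2 ratio of summed CPM (x axis) of 13 gene lists (y axis) in Ctrl cells of cluster 2 over cluster 1 (left) and cluster 3 (right), with black diamonds for both blocks, blue points for block 1 and orange points for block 2. Against cluster 1 the heat shock list lies highest (1.36) and the G2 and M phase list lowest (-0.99), and against cluster 3 the arterial (1.30) and tip cell (1.31) lists lie highest.

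Against cluster 3, cluster 2 was higher in arterial and tip cell genes. The 7 endothelial markers differed less, at a summed 4592 against 3941 CPM in Ctrl cells. At least 2-fold higher were 13.4% of the measured genes and at least 2-fold lower 7.78%. Higher by any amount were 49.3%. Of 18 arterial genes, 16 were higher and 10 by 2-fold, with a median log2 ratio of 1.30. Of 11 tip cell genes, which mark the leading cell of a vessel sprout, 11 were higher and 8 by 2-fold, with a median of 1.31. The arterial median was 2.00 in block 1 and 0.60 in block 2, so its size turned on the block and not its direction. Hey1, the Notch-driven arterial repressor, was at 285 CPM in cluster 2 and 66.8 in cluster 3. The gap was that of block 1 (334 against 20.1 CPM), with 98.7 against 99.3 in block 2. Nrp1, a co-receptor of VEGF and semaphorins, was at 482 against 197 CPM, and Mcam, the adhesion molecule CD146, at 449 against 137. Tmem204, a membrane protein of endothelial junctions, was at 218 against 40.4 CPM, and Sema6d at 190 against 52.3. Nid2, a basement membrane protein, was at 252 against 62.9 CPM, and 12 of 13 genes of its list were higher, with a median of 0.60.

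The tip cell genes Esm1 and Pdgfb had low levels in cluster 3 that moved with its highest cell. Esm1, the secreted proteoglycan endocan, was at 224 against 14.7 CPM, and its log2 ratio went from 3.84 to 6.74 without the highest cell of each group. Pdgfb, the growth factor that draws pericytes, was at 89.9 against 11 CPM, and its ratio went from 2.92 to 5.28 in the same way. The list median went from 1.31 to 1.92. Of 12 immediate early genes, 11 were higher in cluster 2, with a median of 0.81.

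Mesenchymal genes were lower in summed CPM in cluster 2 than in cluster 3. Of 8 measured mesenchymal and smooth muscle genes, 5 were at least 2-fold lower, with a median of -1.21, and the blocks had -0.16 and -1.17. The typical cell differed less. The 5 mesenchymal markers summed to 27.7 CPM in cluster 2 and 197 in cluster 3, while their medians per cell were 2.90 and 4.95. The highest cells had 790 and 2736 CPM. Fbn1, the microfibril protein fibrillin, was at 14.9 against 78.2 CPM and was read in 21.9% and 38.7% of cells. Fabp5, a fatty acid binding protein, was at 31.5 against 69 CPM, and Cd320, the receptor that takes up vitamin B12, at 37 against 105. Of 13 genes of the MYC family and ribosome biogenesis, 2 were higher, with a median of -0.51. By the difference in mean log2(CPM + 1) over cells that median was 0.15, so the direction of this list turned with the measure. The lower number of genes detected per cell in cluster 3 at equal depth, 4309 against 5766, moved with these differences, and its part in them was not tested.

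The heat shock genes code for chaperones that refold damaged proteins, and the factor Hsf1 drives them. The promoters of Hspa1a, Hspb1 and Depp1 are shown because Hspa1a and Hspb1 were among the heat shock genes with the highest ratios to cluster 1, and Depp1 ranked first under the naming rule. They are the 250 bases before the transcription start in RefSeq on build GRCm38.p6, 5′ to 3′ on the strand of the gene, and capitals mark matches to GAANNTTC, the core of the heat shock element. The motif reads the same on both strands. The regions are chr17:34972157-34972406 (minus strand), chr5:135887669-135887918 (plus strand) and chr6:116650434-116650683 (plus strand). For Depp1 the RefSeq start lies downstream of the GENCODE start of the gene given above, so its window ends inside that gene.
Hspa1a: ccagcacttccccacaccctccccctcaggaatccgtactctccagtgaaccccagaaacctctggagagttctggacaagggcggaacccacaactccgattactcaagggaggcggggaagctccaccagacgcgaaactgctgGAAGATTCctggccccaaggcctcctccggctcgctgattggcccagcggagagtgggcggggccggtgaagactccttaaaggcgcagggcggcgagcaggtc
Hspb1: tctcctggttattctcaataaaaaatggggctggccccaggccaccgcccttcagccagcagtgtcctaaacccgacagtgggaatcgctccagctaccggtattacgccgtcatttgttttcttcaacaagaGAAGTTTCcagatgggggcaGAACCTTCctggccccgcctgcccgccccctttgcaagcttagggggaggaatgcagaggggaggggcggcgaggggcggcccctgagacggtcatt
Depp1: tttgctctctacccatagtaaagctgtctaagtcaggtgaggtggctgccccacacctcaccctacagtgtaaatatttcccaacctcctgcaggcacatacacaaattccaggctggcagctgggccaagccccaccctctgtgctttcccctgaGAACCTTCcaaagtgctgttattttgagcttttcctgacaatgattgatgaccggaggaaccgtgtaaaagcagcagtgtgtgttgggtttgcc
The first base of the match lay 104 bases before the start in Hspa1a, 117 and 97 bases before it in Hspb1, and 94 bases before it in Depp1. Of 9 heat shock genes, 7 were found in the RefSeq table and 5 of them held a match in this window, namely Hspa1a, Hspa1b, Hspb1, Hspd1 and Hspe1. Dnajb1 and Hsph1 held none, and neither did Stab2, while Ltv1 held 1. Of 32851 promoters in the table, 6.69% held a match in a window of the same length. A match describes the letters only.

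Hspa1a, an inducible Hsp70 chaperone, was read in 57 of 73 Ctrl cells of cluster 2, with a median of 44.3 and a highest cell of 5399 CPM. In cluster 1 it was read in 62 of 97 cells, with a median of 0.946 and a highest of 362 CPM. Its summed level was 361 CPM in cluster 2, 26.4 in cluster 1 and 158 in cluster 3. Hspa1b is a near-identical copy, so reads can be split between them, and both are uncertain. It was at 27.2 CPM in cluster 2 and 0.942 in cluster 1. Hspb1, the small chaperone Hsp27, was at 62.8, 1.93 and 2.69 CPM in clusters 2, 1 and 3. The remaining genes of the list differed less from cluster 1. Hsp90aa1, an Hsp90, was at 436 against 173 CPM, Hspa8, the constitutive Hsp70, at 431 against 232, Hspe1 and Hspd1, the mitochondrial chaperonin pair, at 130 against 62.3 and 151 against 90.2. Hsph1, a large Hsp110 chaperone, was at 160 against 51.2 CPM, and Dnajb1, an Hsp40 partner of Hsp70, at 254 against 98.4.

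Hspa1a, Hspa1b and Hspb1 were higher in block 1 than in block 2. Hspa1a was at 456 CPM in block 1 of cluster 2, with reads in 90% of cells, and at 7.30 in block 2, with reads in 23.1%. Cluster 1 had the same step at a lower level, 34.3 and 2.57 CPM, and cluster 3 had 307 and 54.1. Hspb1 was at 79.4 and 0.730 CPM in the blocks of cluster 2. For Hspa1b, block 2 alone gave a log2 ratio to cluster 1 of -0.74, with no read in cluster 2, and for Hspd1 one of -0.03. The list as a whole was still higher in block 2 for 7 of 9 genes, where 47% of all measured genes were.

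The summed level of the 9 genes per cell of block 1 ran from 292 through a median of 1229 to 11252 CPM in cluster 2, and from 91 through 721 to 2049 in cluster 1. The upper tail of cluster 2 passed the highest cell of cluster 1, as the plot by cell shows. A bound of 500 CPM of Hspa1a, Hspa1b and Hspb1 together, chosen after their values were seen, was passed by 14 of 60 Ctrl cells of cluster 2 in block 1 (23.3%, 13.4 to 36). It was passed by 0 of 81 cells of cluster 1. In cluster 3 it was passed by 3 of 13 cells (23.1%, 5.04 to 53.8). This share thus set cluster 2 apart from cluster 1 but not from cluster 3. In block 2 the bound was passed by 0 of 13 Ctrl cells of cluster 2. The class is a range and not a type, and 12 of the 60 cells lay within 2-fold of the bound.

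Without the cells past that bound, the ratio of cluster 2 to cluster 1 went from 3.72 to 1.498 for Hspa1a, from 4.45 to 1.89 for Hspb1, from 3.86 to 1.04 for Hspa1b and from 1.62 to 0.86 for Hsph1. This left 59 Ctrl cells of cluster 2 and all 97 of cluster 1. The bound was set on Hspa1a, Hspa1b and Hspb1, so the fall in these genes was built in. The list median went from 1.36 to 0.75. The other leading genes stayed close: Depp1 went from 1.21 to 1.12, Ltv1 from 1.31 to 1.23 and Stab2 from 2.41 to 2.57. Treated cells gave the heat shock list the same place, with 9 of 9 genes higher than in treated cluster 1, where 50.5% of all measured genes were, and a median of 1.37. The handling and dissociation of the cells are not described per block in the labels, and their part was not tested.

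**Figure D3:**
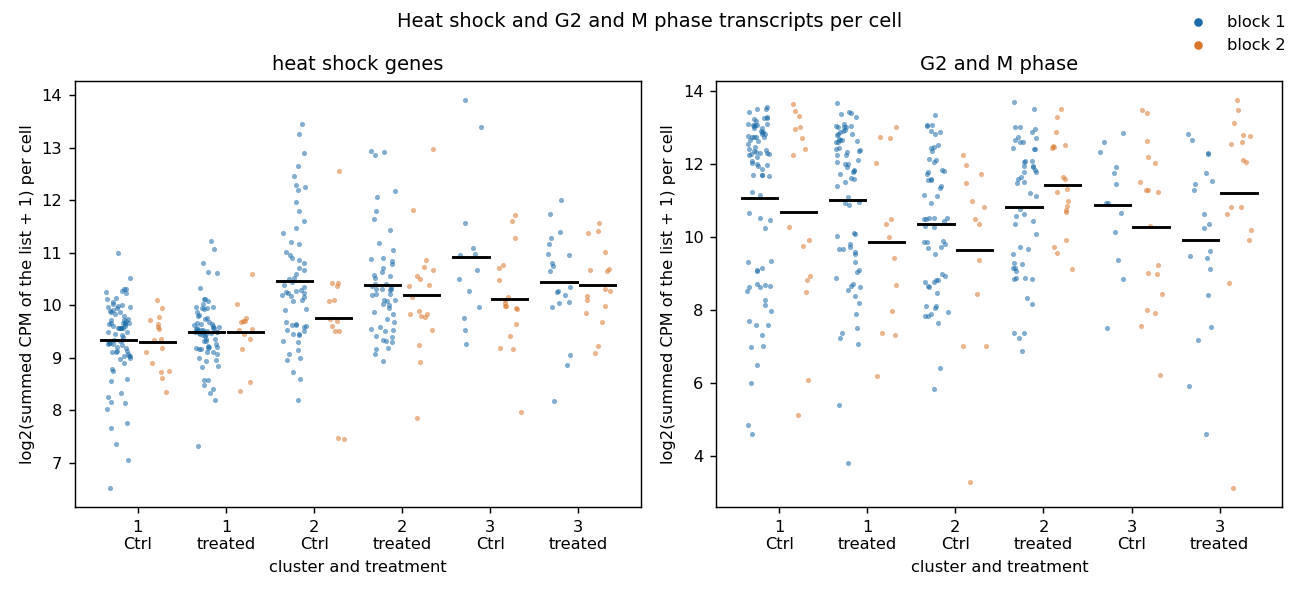
Summed level per cell of 9 heat shock genes (left) and 18 genes of G2 and M phase (right), as log2(summed CPM + 1) on the y axis, for clusters 1 to 3 by treatment on the x axis, with each point a cell, blue for block 1, orange for block 2 and a black bar at the mean. Heat shock transcripts of cluster 2 reach 11252 CPM in block 1 against 2049 in Ctrl cells of cluster 1, and G2 and M phase transcripts are lower in Ctrl cells of cluster 2 than of cluster 1.

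Cell cycle genes gave the other step between clusters 1 and 2. The 18 genes of G2 and M phase, which code for mitotic kinases, cyclins and kinetochore proteins, summed per Ctrl cell of cluster 2 to a lowest of 8.89, a median of 1436 and a highest of 10395 CPM. In cluster 1 the values were 23.4, 4631 and 12845 CPM, so the ranges overlapped while the median of cluster 1 was the higher, and cluster 3 had a median of 1951. At equal depth of 100000 reads the medians were 1400, 4250 and 1920. Plk1, a kinase of mitotic entry, was read in 63% of the cells of cluster 2 and 79.4% of cluster 1, at 105 and 246 CPM. Cenpe, the kinetochore motor, was at 80.2 against 257 CPM, and Aurka, the spindle pole kinase, at 76.9 against 165. The 18 genes of S phase had a median per cell of 2077 CPM in cluster 2, 1473 in cluster 1 and 1852 in cluster 3. Cluster 2 thus had a higher median of S phase and a lower one of G2 and M phase transcripts than cluster 1. Against cluster 3 neither list had a shared direction, with 6 of 18 S phase genes higher (median log2 ratio -0.19) and 9 of 18 of G2 and M phase (0.02). In treated cells the S phase step was still there, with 17 of 18 genes higher and a median ratio of 0.37. The G2 and M phase step was not, with 6 of 18 higher and a median of -0.04.

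The cells of cluster 2 differed among themselves in Aplnr and Gja4. Over the 8549 genes read in enough of its cells, the gene whose log2(CPM + 1) ran most against Aplnr was Gja4, connexin 37, a gap junction protein of arteries. Pearson's r was -0.66 over 73 Ctrl cells and -0.65 over 72 treated cells. It was -0.66 and -0.73 in the blocks of Ctrl. Each point is 1 library with its own depth, so r is a description. Of 73 Ctrl cells, 43 had reads of Aplnr and not Gja4, 28 had both, 2 had Gja4 alone and 0 had neither. Of 72 treated cells, the counts were 53, 16, 2 and 1. Cells with Gja4 and no Aplnr were few in both treatments, but so were all cells without Aplnr, 2 in Ctrl and 3 in treated. Gja4 was read in 30 Ctrl cells, and its highest cell had 2427 CPM.

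Genes that ran with Aplnr and against Gja4 were, in part, venous. They are named after their values were seen. Nrp2, a neuropilin of veins and lymphatics, had r of 0.61 with Aplnr in Ctrl and 0.37 in treated cells, and -0.63 and -0.41 with Gja4. Odc1, the first enzyme of polyamine synthesis, had -0.50 and -0.45 with Gja4, and Abcc9, a subunit of potassium channels, -0.44 and -0.35. Unc5b, a netrin receptor of arteries and tip cells, had -0.47 and -0.24 with Aplnr. Ephb4, another venous marker, had -0.41 with Gja4 in Ctrl cells (0.12 in block 2 alone) and 0.04 in treated cells. The venous factor Nr2f2 had 0.42 and 0.15 with Aplnr, and -0.44 and -0.15 with Gja4. It was never read in a cell without Aplnr, but only 5 of the 145 cells had no Aplnr read, so this says little. The label's markers did not vary together in the same way. Aplnr and Sox17 were both read in 136 of 145 cells, and their r was -0.06 in Ctrl and -0.01 in treated cells. Sox17 and Depp1 were both read in 130 cells, with r of 0.38 and 0.30.

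**Figure D4:**
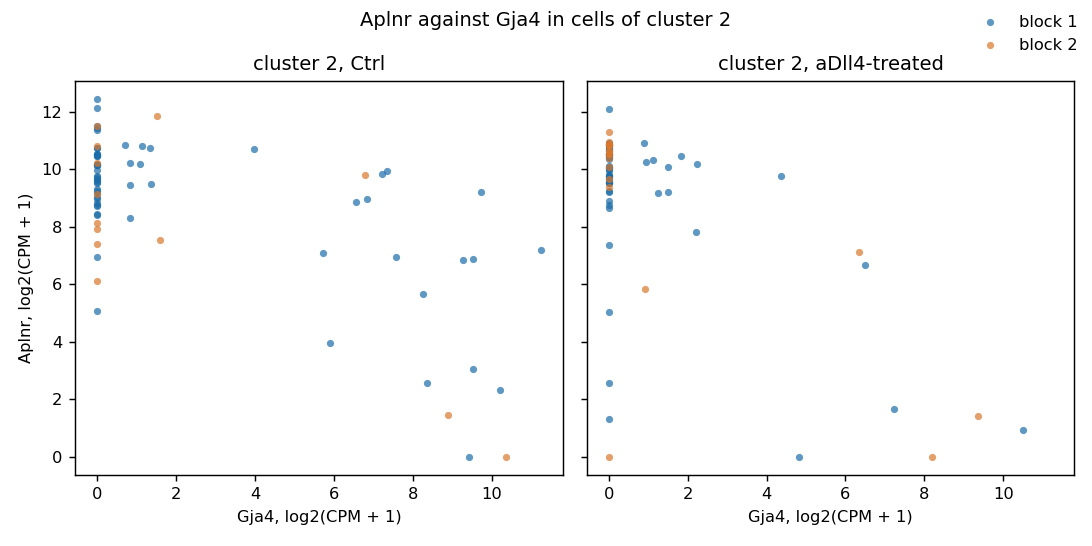
Aplnr (y axis) against Gja4 (x axis), both as log2(CPM + 1), in cells of cluster 2, Ctrl on the left and aDll4-treated on the right, with each point a cell, blue for block 1 and orange for block 2. Cells with no Gja4 read stand on the left edge, 43 of 73 in Ctrl and 54 of 72 in treated, and cells high in Gja4 are low in Aplnr (r of -0.66 and -0.65).

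Treated cells of cluster 2 were compared with Ctrl cells within each block. Dll4, the gene the treatment is named for, was lower in both. In block 1 its level per cell had a median of 220 and a highest of 2162 CPM in Ctrl cells, and of 112 and 2198 in treated cells, with 6 cells at 0 in each group. Its summed level was 336 CPM (331 to 341) in Ctrl and 207 (203 to 212) in treated cells, a log2 ratio of -0.69. In block 2 it was 252 and 141 CPM, a ratio of -0.84. The cells overlapped over nearly their whole range. Among cells with Y-linked reads in block 1 the ratio was -0.81, and among cells with Xist reads in block 2, with 4 Ctrl cells, it was 0.01. The library numbers form 6 runs of 96, and treated cells had the lower Dll4 sum in all 6 and the lower mean of log2(CPM + 1) in 5. Without run 1 the ratio of block 1 was -0.37. Cluster 1 had -1.17 and 0.10 in the blocks, and cluster 3 -1.35 and -0.36.

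Most genes differed little in block 1, where 2.84% of the measured genes were at least 2-fold higher in treated cells and 4.84% at least 2-fold lower. The markers taken for cluster 2 did not stand out. Aplnr went from 933 to 964 CPM, Sox17 from 337 to 340 and Depp1 from 780 to 852. In block 2, with 13 Ctrl and 19 treated cells, 17% of genes were 2-fold higher and 12% 2-fold lower, so a 2-fold ratio was common there. Aplnr was at 1061 and 1132 CPM, Sox17 at 496 and 334, and Depp1 at 1068 and 796. In block 2 the Aplnr ratio of 0.09 was 1.76 among cells with Xist reads, 0.56 without run 5 and -0.53 without run 6. The Sox17 ratio turned from -0.57 to 0.25 among cells with Xist reads, and that of Depp1 from -0.42 to 1.06 by the difference in mean log2(CPM + 1). In block 1 the Aplnr ratio of 0.05 was -0.18 and the Sox17 ratio of 0.01 was -0.42 among cells with Y-linked reads.

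Arterial and Notch target genes were lower in treated cells of block 1. Of 18 arterial genes, 4 were higher (48.8% of all genes were), 0 by 2-fold, and 6 were at least 2-fold lower, with a median log2 ratio of -0.70 against -0.01 over all genes, and of -0.61 among cells with Y-linked reads. Without run 1 it was -0.25. In cluster 1 the same list had a median of -0.80 in block 1. In block 2 the counts were 5 higher and 5 at least 2-fold lower, with a median of -0.82, but it turned to 0.18 among cells with Xist reads and to 0.34 without library run 5. Of 5 measured Notch targets, 0 were higher in block 1 and 3 were 2-fold lower, with a median of -1.28. By the difference in mean log2(CPM + 1) that median was -0.30, and without run 1 it was -0.82. In block 2 the median of -0.67 turned to 1.36 without the highest cell of each gene, to 1.19 among cells with Xist reads and to 1.18 without run 5. The direction of the Notch targets in block 2 thus turned with the setting.

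Hey1 went from 334 to 97.5 CPM in block 1. Its median per cell was 117 in Ctrl and 29.8 in treated cells, and its highest cell 2035 and 710 CPM. In block 2 it went the other way, from 98.7 to 193 CPM, and its ratio of 0.96 was 2.45 without run 5 and 3.03 among the Xist cells. The block 1 ratio of -1.77 was -1.16 among the Y-linked cells. Cluster 1 showed the same split between blocks, with ratios of -2.20 and 1.57. Nrarp, a Notch target that feeds back on the pathway, was at 15.4 and 5.75 CPM in block 1, and at 2.63 and 10.8 in block 2. Hes1, a repressor that Notch switches on, was lower in both, from 97.4 to 56.5 CPM and from 171 to 47.5, with a lower sum in all 6 runs and a lower mean of log2(CPM + 1) in 4, and its block 2 ratio of -1.83 was -3.04 without run 6. Notch1, the receptor, was at 282 and 203 CPM in block 1, and at 155 and 154 in block 2. Esm1 was at 256 and 86.2 CPM in block 1, and at 106 and 107 in block 2, where its ratio of 0.01 was 2.30 without run 5, -2.75 without run 6 and -1.06 among the Xist cells.

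Gja4 had a lower mean of log2(CPM + 1) in treated cells in all 6 runs, but a lower sum in 4 only. In runs 3 and 6 the sum was higher in treated cells, with log2 ratios of 0.64 and 1.64. In block 1, 41.7% of Ctrl cells and 26.4% of treated cells had a read, and in block 2 38.5% and 21.1%. Its level went from 135 to 47.5 CPM and from 218 to 74.1. The sums moved with single cells and runs. Without the highest cell the ratio went from -1.48 to -3.45 in block 1 and from -1.55 to -0.34 in block 2. Without run 1 it was -0.76 and without run 3 it was -3.80 in block 1, and without run 5 it was 1.64 in block 2. Among cells with Xist reads in block 2 it was 5.96, with 4 Ctrl cells. Gja5, connexin 40, the other arterial connexin, was read in only 6 of 73 Ctrl cells of cluster 2. Its sums of 26.1 and 1.95 CPM in Ctrl and treated cells of block 1, and of 60.8 and 31.4 in block 2, rested on 1 to 5 cells each.

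Mecom was read in 48 of 60 Ctrl cells of block 1 (95% interval of the share 67.7 to 89.2%) and in 28 of 53 treated cells (52.8%, 38.6 to 66.7). Its median per cell was 35.9 and 1.10 CPM. It was at 76.2 and 42.9 CPM in block 1, and at 113 and 18.3 in block 2. The ratio held its sign with the Y-linked cells (-0.85), with the Xist cells (-1.74) and without any 1 run. Leaving out a run gave -1.94 (run 3) to -0.28 (run 1) in block 1, and -2.23 (run 6) to -0.51 (run 5) in block 2. Igfbp3 had a read in every Ctrl cell and every treated cell of block 1, with medians of 448 and 271 CPM. It was at 1110 and 682 CPM in block 1, and at 1211 and 452 in block 2, where 4 of 19 treated cells had no read. Its block 1 ratio of -0.70 was -0.31 in the Y-linked cells, -0.39 without run 1 and -1.13 without run 2. In block 2 its ratio of -1.42 was -2.08 in the Xist cells and -0.55 without run 5. Nrp1 had a lower mean of log2(CPM + 1) in all 6 runs and a lower sum in 5, at 411 and 296 CPM in block 1, and at 749 and 266 in block 2. Its block 2 ratio of -1.49 was -0.12 among cells with Xist reads, -0.52 without run 5 and -2.10 without run 6, and its block 1 ratio of -0.47 was -0.12 without run 1.

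Other genes lower in treated cells were of several kinds. Dap went from 115 to 69.1 CPM in block 1 and from 151 to 80.2 in block 2, with a lower mean of log2(CPM + 1) in all 6 runs and a lower sum in 5, and its ratio was -0.85 in the Y-linked cells of block 1 and -0.85 in the Xist cells of block 2. Its block 2 ratio of -0.90 was -1.65 without run 5 and -0.35 without run 6. Pcyox1, which breaks down prenylcysteine, went from 51.3 to 35.9 and from 135 to 47.6 CPM. Pink1, the kinase that marks damaged mitochondria, went from 84.2 to 56 and from 62.4 to 4.15 CPM, with a block 2 ratio of -3.62 that was -4.64 in the Xist cells, -5.72 without run 6 and -2.56 without run 5. Ctdspl, a small phosphatase, went from 22.9 to 6.48 and from 18 to 6.18 CPM, with reads in 51.7% and 26.4% of the cells of block 1, but its ratio in block 2 was 2.08 among the Xist cells, -2.96 without run 5 and -0.14 without run 6. Klhl4 was named for block 1. It had a median per cell of 199 CPM in Ctrl and 19.4 in treated cells there, and 252 and 125 CPM in sum, against 278 and 250 in block 2, where its ratio of -0.15 was 0.64 without run 5 and 1.31 in the Xist cells.

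The naming rule for both blocks and the Y-linked cells was met by 885 genes higher in treated cells (8.58% of the 10318) and 355 lower (3.44%). Rgs16, Slc1a5, Cebpd, Tanc1 and Gjc1 were among the leading ones and had a higher mean of log2(CPM + 1) in all 6 runs. The sums of Tanc1 and Gjc1 were also higher in all 6, and those of Rgs16, Slc1a5 and Cebpd in 5. Genes were named by the block differences in that mean over these same cells, so agreement over runs is in part built in. Rgs16, which switches off G protein signals, had reads in 26.7% of Ctrl cells and 49.1% of treated cells in block 1, and in 15.4% and 47.4% in block 2. It was at 28.9 and 71.6 CPM, and at 12.7 and 35.7. The highest Ctrl cell of block 1 had 1229 CPM. The ratio of 1.28 was 2.35 in the Y-linked cells, 2.60 without run 4 and 0.82 without run 3. The block 2 ratio of 1.42 was 5.25 in the Xist cells, 4.71 without the highest cell, 0.55 without run 5 and 0.46 without run 6. Slc1a5, the glutamine transporter, was at 61.2 and 137 CPM in block 1, with medians of 18.8 and 79.8 CPM per cell. It was at 34.4 and 80.9 CPM in block 2. Its ratios of 1.15 and 1.21 were 1.07 in the Y-linked and 0.59 in the Xist cells. They were 0.57 without run 4 in block 1 and 0.71 without run 5 in block 2, and cluster 1 had 0.77 and 0.76.

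Cebpd, a C/EBP transcription factor, was at 25.5 and 46.6 CPM in block 1, and at 26.1 and 98.7 in block 2. Without run 4 its block 1 ratio went from 0.85 to 0.19, and without run 5 its block 2 ratio went from 1.88 to 0.63 (3.34 without run 6). Tanc1, a scaffold protein, was at 62.8 and 86 CPM, and at 22.2 and 106, with a block 1 ratio of 0.45 that was 0.12 in the Y-linked cells, and a block 2 ratio of 2.20 that was 1.64 in the Xist cells, 1.19 without run 5 and 2.96 without run 6. Gjc1, connexin 45, was at 19.1 and 33.4 CPM in block 1, and at 0.730 and 36.4 in block 2, so the second ratio, 4.43, which was 5.28 in the Xist cells, 1.88 without run 5 and 6.07 without run 6, rests on a Ctrl level near 0. Nts, the peptide neurotensin, was named in block 1 alone but was higher in all 6 runs, in its sum and in its mean of log2(CPM + 1). It was at 7.75 CPM in Ctrl and 106 in treated cells of block 1, and at 11.8 and 95.9 in block 2. The share of cells with a read was 30% and 45.3%, and 30.8% and 31.6%, and the highest treated cells reached 1491 and 1566 CPM. Its block 2 ratio of 2.93 was 0.98 without run 5 and 4.25 without run 6. Cluster 1 had ratios of 1.24 and 2.18 for it.

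**Figure D5:**
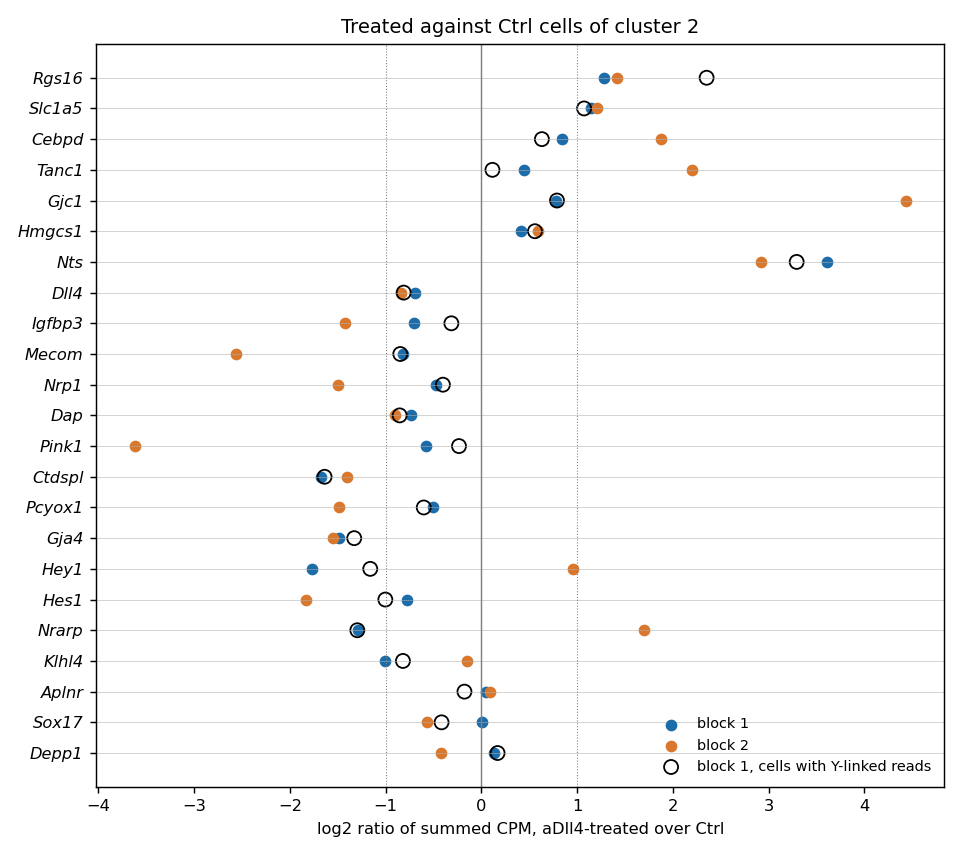
Log2 ratio of summed CPM, aDll4-treated over Ctrl cells of cluster 2 (x axis), for 23 genes (y axis), with blue points for block 1, orange points for block 2 and open circles for cells with Y-linked reads in block 1. Dotted lines stand at 2-fold. Dll4, Gja4 and Mecom lie left of 0 in all 3, Slc1a5 and Nts right of it, Hey1 and Nrarp on opposite sides in the blocks, and Aplnr, Sox17 and Depp1 within 2-fold.

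Genes of sterol synthesis and of p53 lay slightly higher in treated cells. Of 11 cholesterol synthesis genes, 9 were higher in block 1 (median 0.38) and 9 in block 2 (median 0.55), where 48.8% and 56% of all genes were higher by any amount. The median was 0.54 among the Y-linked cells of block 1 and 0.09 among the Xist cells of block 2, and cluster 1 had 0.14 and -0.24. Hmgcs1, which makes the precursor HMG-CoA, was at 187 and 249 CPM, and at 207 and 313. Sqle, the squalene epoxidase, was at 96.6 and 136 CPM, and at 122 and 199. Both had a higher mean of log2(CPM + 1) in all 6 runs and neither was 2-fold higher over a block, while the sum was higher in all 6 for Sqle and in 5 for Hmgcs1. The Sqle ratios of 0.49 and 0.70 were 1.18 in the Y-linked and 0.09 in the Xist cells. The Hmgcs1 ratios of 0.41 and 0.59 were 0.12 without run 4 and 1.53 without run 5, and block 2 thinned to equal depth gave -0.01. The list median of block 2 was 0.99 without run 5 and 0.20 without run 6. Of 10 p53 targets, 8 were higher in each block, with medians of 0.18 and 0.40. Phlda3, a p53 target that holds back Akt, was at 22.1 and 48.4 CPM in block 1, and at 15.6 and 52.8 in block 2, where its ratio of 1.69 was 2.67 without the highest cell and 5.29 in the Xist cells.

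G2 and M phase genes were higher in treated cells of cluster 2 and lower in those of cluster 1. In cluster 2, 15 of 18 lay above Ctrl in block 1 (median log2 ratio 0.19) and 17 of 18 in block 2 (median 1.14). In cluster 1, 0 of 18 were above Ctrl in either block, where 51.1% and 44.1% of all measured genes were, with list medians of -0.32 and -1.17. The difference between the clusters was not tested. Per cell of cluster 2, the sum over the 18 genes had a median of 1440 CPM in Ctrl and 2830 in treated cells of block 1, with the highest at 10395 and 13148. In block 2 the medians were 1436 and 2557 and the highest 4884 and 11602 CPM. Most treated cells lay inside the Ctrl range. Ccnb1, the cyclin of mitotic entry, was at 57.1 and 96.4 CPM in block 1, and at 23.4 and 99.2 in block 2. Ube2c, which helps to destroy cyclins, was at 226 and 339 CPM, and at 61 and 280. Plk1 was at 129 and 127 CPM in block 1 and at 16.6 and 212 in block 2, where 3 of 13 Ctrl cells had a read. Aurka was at 92.5 and 108 CPM, and at 18.6 and 124. In the Xist cells of block 2 the ratio of Ccnb1 went from 2.04 to 1.25, that of Aurka from 2.68 to 1.80 and that of Plk1 from 3.60 to 7.71, and without run 1 the Aurka ratio of block 1 went from 0.22 to -0.32. The block 2 median was 1.11 in the Xist cells, 0.51 without run 6 and 1.88 without run 5. The block 1 median was 0.08 in the Y-linked cells, 0.57 without run 2 and -0.10 without run 1, so its direction turned on that run. The 18 S phase genes had medians of -0.05 and 0.36, and the latter was -0.08 among the Xist cells. The clusters were drawn on the transcripts, so a shift of cells between clusters and a shift within them cannot be told apart.

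Heat shock genes went opposite ways in the blocks. In block 1, 2 of 9 lay above Ctrl, and the median was -0.31, and Hspa1a went from 456 to 177 CPM. In block 2, 8 of 9 were higher, where 56% of all genes were, with a median of 0.69, and Hspa1a went from 7.30 to 85.7 CPM, with reads in 23.1% and 26.3% of cells. The bound of 500 CPM was passed by 7 of 53 treated cells in block 1 and 1 of 19 in block 2, and that 1 cell had 1693 CPM of the 3 genes. Without the cells past the bound the Hspa1a ratio was -0.29 in block 1 and 1.57 in block 2. The block 1 ratio of -1.36 was -2.01 without run 3, and the block 2 ratio of 3.38 was 6.49 in the Xist cells and 5.38 without run 5.

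With both blocks together, the step in summed CPM of arterial genes between clusters 2 and 3 was not seen among treated cells. There, 9 of 18 arterial genes were higher in cluster 2, where 49.2% of all measured genes were, with a median of 0.02, against 16 of 18 and 1.30 among Ctrl cells. Tip cell genes were still higher in 9 of 11, with a median of 2.14. At 2-fold or more, 12.5% of genes were higher and 7.24% lower in this comparison. Against treated cells of cluster 1, where 3.06% of genes were 2-fold higher and 4.87% lower, the arterial median was -0.27. The sum of Dll4, Efnb2, Gja4, Gja5 and Hey1 was also taken by block in clusters 2 and 3. Ctrl cells had 897 against 182 CPM in block 1 and 708 against 693 in block 2. Treated cells had 413 against 407 and 487 against 444. Whether any of these steps differed between Ctrl and treated cells was not tested.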

How the data were processed

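Per the submitters' processing notes, reads were aligned with GSNAP 2015-09-29 to mm10 and counted per gene with HTSeq 0.6.0, and the authors deposited the raw count of each gene in each of 483 cells. The protocol does not keep strand, so overlapping genes cannot be told apart. No cell filter or doublet caller was applied, and the lowest library of clusters 1 to 3 held 123097 reads. Counts were summed by cluster, treatment and block, and clusters were taken from the labels. Analyses used python 3.11.15, numpy 2.4.6, pandas 2.3.3 and scipy 1.17.1. The scaling factors tried came from edgeR 4.0.16 and DESeq2 1.42.0 in R 4.3.3.

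Named genes had reads in 25% or more of the cells of the higher group and were neither sex-linked nor predicted. Their direction was shared by both blocks under each of 3 measures, namely the summed level, the log2 level averaged over cells and the share of cells with reads. The 12 highest and 12 lowest by the smaller of the 2 differences led the comparison with both clusters and that of treatment, where the Y-linked cells of block 1 also had to share the direction. A further 6 each way came from each cluster or block alone, and up to 4 members from a list. Of the genes the rule names, 2 are not reported here. Gene positions are those of GENCODE M21 on mm10. Further genes came from 44 lists of 431 genes. Nrp2, Odc1, Abcc9, Unc5b, Meis1 and the bound on heat shock genes were chosen after their values were seen. The members and lists were chosen with earlier results of these data known. Alternatives to scaling, pseudocount, filter, depth, block, run and sex are given at the end.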

Additional observations from a re-analysis of the deposited data

How the results depend on the processing

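With 1 sample per treatment these values have no error between samples, and the 13 Ctrl cells of block 2 limit every value there. No paired analysis was possible because the cell numbers in the labels only run within a cluster and treatment and pair no cells. The 6 runs of library numbers each held both treatments, and the direction within them is given as a description beside the genes. Named genes were picked on the same cells, so this direction is no independent support for them. Scaling by TMM or median of ratios, leaving mitochondrial genes out, thinning, keeping deeper cells and leaving out the cells high in heat shock genes (the last chosen after seeing the data) kept every count of genes past 2-fold within 1.5 times. Over all alternatives 79 of 120 such counts were that close and 41 were not. Of 2354 values of named genes and lists, 64 changed sign. In 43 of these the reported log2 size was under 0.5 for a gene or 0.3 for a list, as for Klhl4, Esm1, Aplnr, Depp1 and the G2 and M phase median of block 1, whose values stand beside their results. The other 21 are given below. The cause of the changes was not tested, and neither was the part of the smaller number of genes or cells that a filter leaves.

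Against cluster 1, 301 genes were 2-fold higher and 641 lower. The higher count was 471 with a pseudocount of 0.1 CPM, 50 with 10 CPM, 830 over any gene with a read, 42 over genes read in 50% of cells, 83 by mean log2 values and 1529 in block 2 alone. The lower count was 117 with 10 CPM, 1244 over any gene, 108 over genes read in 50% of cells and 2541 in block 2. Against cluster 3, 1710 were higher and 995 lower. The higher count was 610 with 10 CPM, 521 over genes read in 50% of cells, 3036 by mean log2 values, 2851 without the highest cell and 2937 in block 1 alone. The lower count was 360 with 10 CPM, 1862 over any gene, 236 over genes read in 50% of cells, 71 by mean log2 values, 553 without the highest cell and 2132 in block 2.

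For treatment in block 1, 363 genes were higher and 619 lower. The higher count was 573 with 0.1 CPM, 30 with 10 CPM, 923 over any gene, 18 over genes read in 50% of cells, 165 by mean log2 values, 720 in Y-linked cells, and 516 to 552 without 1 run. The lower count was 75 with 10 CPM, 1257 over any gene, 50 over genes read in 50% of cells, 198 by mean log2 values, and 811 to 881 without 1 run. In block 2, 2170 were higher and 1528 lower. The higher count was 996 with 10 CPM, 700 over genes read in 50% of cells, 3904 in Xist cells, and 2637 to 3652 without 1 run. The lower count was 694 with 10 CPM, 422 over genes read in 50% of cells, 681 by mean log2 values, and 1755 to 2291 without 1 run.

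Of these 21, those against cluster 1 were the stem cell regulators over genes read in 50% of cells (-0.020) and, in block 2 alone, Hspa1b (-0.74), Hspd1 (-0.025) and Myc (-0.72). Against cluster 3 they were Hey1 in block 2 alone (-0.0078) and the list of the MYC family and ribosome biogenesis by mean log2 values (0.15). For treatment in block 2 the Notch target genes changed sign over any gene (0.033), over genes read in 50% of cells (0.14), by mean log2 values (0.23), without the highest cell (1.36), in Xist cells (1.19) and without run 5 (1.18, against -0.36 without run 6). Hmgcs1 did so after thinning (-0.0062). In Xist cells so did Sox17 (0.25), Dll4 (0.0077), Gja4 (5.96), Ctdspl (2.08), the arterial list (0.18) and the S phase list (-0.084). Without run 5 so did Gja4 (1.64, against -1.20 without run 6) and the arterial list (0.34, against -0.55).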
